A study of Mus musculus with 12 samples.

Results

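The 6 genes described here encode proteins of the presynaptic terminal and of the adhesion complexes that join it to the postsynaptic cell: Nrxn2, Flrt3, Pclo, Syngr1, Syt7 and Sv2b. Every unique peak of the deposited table that carries one of these gene names was taken, which gave 1 peak per gene, 6 of 529 unique peaks in all. The peaks come from MeRIP-seq: polyadenylated RNA is broken into short fragments, those that bind an antibody against N6-methyladenosine (m6A) are pulled out, and both they and the input are sequenced. N6-methyladenosine is a methyl mark on adenosines inside messenger RNA. The tissue was hippocampus of male C57BL/6 mice, 3 months old (young) or 20 months old (aged), with no treatment or altered allele named, and each age had 3 immunoprecipitate libraries, each from individual hippocampal tissue. The mice of each age were chosen after a qPCR pre-check of genes known to change with age, so the groups are not a random draw of each age. The table holds the reads of the immunoprecipitates at peaks that the authors had called different between the ages, and the 6 matching input libraries were not analysed here. Methylation of a transcript and the amount of that transcript therefore cannot be told apart in these reads. All 6 peaks had been selected on the same libraries, so the p-values below are not independent evidence of a difference.

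A synaptic vesicle is filled with transmitter, docks at the active zone, fuses with the plasma membrane when calcium enters through voltage-gated channels, and is then recovered by endocytosis. Piccolo, the product of Pclo, is a very large scaffold protein of the active zone. Synaptogyrin-1 (Syngr1) and SV2B (Sv2b) are membrane proteins of the vesicle itself, and synaptotagmin-7 (Syt7) is a high-affinity calcium sensor linked to asynchronous release, facilitation and vesicle replenishment. Neurexin-2 (Nrxn2) is a presynaptic receptor that binds neuroligins and other partners across the synaptic cleft. FLRT3 (Flrt3) is a leucine-rich repeat membrane protein that binds latrophilins and UNC5 receptors. In the hippocampus these molecules are studied for their part in transmitter release and in the formation and specificity of synapses.

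The 6 peaks lie in different parts of their genes, and their sequences are shown because the antibody recognises methylated adenosines, most of which are known to lie in a short consensus. That consensus, called DRACH, is an adenosine preceded by A or G, with A, G or T before that, and followed by C and then by A, C or T; GGAC is the core form of it. Sequences below were read 5' to 3' on the strand of the gene from GRCm38, the assembly of mm10, with DRACH words in capitals in the Nrxn2, Flrt3, Pclo and Syngr1 peaks, GGAC in capitals in the Syt7 peak and the 8-base word GGCAGAGA in capitals in the Sv2b peak. The Syngr1 and Syt7 peaks are represented by 30 bases around their GGAC, and the other peaks are shown whole.
Nrxn2 (chr19:6531448-6531663, plus strand): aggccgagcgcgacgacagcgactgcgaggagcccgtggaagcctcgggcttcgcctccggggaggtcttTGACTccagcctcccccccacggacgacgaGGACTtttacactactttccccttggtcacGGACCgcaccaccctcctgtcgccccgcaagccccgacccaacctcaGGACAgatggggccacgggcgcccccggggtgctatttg
Flrt3 (chr2:140661278-140661477, minus strand): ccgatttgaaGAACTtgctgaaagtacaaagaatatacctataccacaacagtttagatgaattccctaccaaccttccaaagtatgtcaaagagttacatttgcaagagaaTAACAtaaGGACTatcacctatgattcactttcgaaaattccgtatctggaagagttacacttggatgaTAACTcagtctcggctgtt
Pclo (chr5:14712555-14712754, plus strand): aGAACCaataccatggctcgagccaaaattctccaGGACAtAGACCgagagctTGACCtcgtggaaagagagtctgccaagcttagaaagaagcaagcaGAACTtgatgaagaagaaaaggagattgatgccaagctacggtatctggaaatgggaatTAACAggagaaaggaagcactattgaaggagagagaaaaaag
Syngr1 (chr15:80117828-80117857, plus strand): agagtcagggaggGGACAagggtgtcagag
Syt7 (chr19:10422880-10422909, plus strand): caccacccggagaGGACgccttgagaagcg
Sv2b (chr7:75252912-75253111, minus strand): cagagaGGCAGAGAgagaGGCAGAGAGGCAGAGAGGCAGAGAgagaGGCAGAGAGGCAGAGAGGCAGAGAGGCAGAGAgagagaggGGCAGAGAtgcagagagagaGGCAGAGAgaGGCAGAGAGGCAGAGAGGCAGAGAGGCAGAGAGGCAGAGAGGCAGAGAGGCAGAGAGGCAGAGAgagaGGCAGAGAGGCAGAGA

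The Nrxn2 peak (mm10 chromosome 19, 6531447 to 6531663 as deposited) was annotated by the authors as exonic. In GENCODE M21 it lies wholly in coding sequence of 4 of the 9 protein-coding Nrxn2 transcripts, in the last exon. In the long transcript Nrxn2-205 it covers codons 1471 to 1543 of 1703, and in the short transcript Nrxn2-202 codons 428 to 500 of 660, so these reads do not separate the long from the short neurexin-2 forms. The Flrt3 peak (chromosome 2, 140661277 to 140661477) covers codons 77 to 143 of 649 in exon 3 of 3, in both protein-coding transcripts. The Pclo peak (chromosome 5, 14712554 to 14712754) lies in exon 7 of 25 of Pclo-201 and covers codons 3681 to 3747 of 5068, and it is coding in all 3 protein-coding transcripts.

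The Syngr1 peak (chromosome 15, 80117728 to 80117928) lies in the 3'UTR, inside exon 4 of 4 of Syngr1-201, where it starts 1655 bases after the last coding base in a UTR of 3425 bases. It is in 1 of 4 protein-coding transcripts, since the others do not span it. The Syt7 peak (chromosome 19, 10422720 to 10422941) was annotated as intronic, yet 157 of its 221 bases are in a coding exon of 5 of the 9 protein-coding Syt7 transcripts, and the remaining protein-coding transcripts skip that exon. The Sv2b peak (chromosome 7, 75252911 to 75253111) is intronic in every transcript that spans it. It lies in intron 1 of Sv2b-201, which is 101282 bases long, and 45989 bases from the nearest exon. The Flrt3 peak also lies in an intron of Macrod2 on the opposite strand, and antisense genes overlap the Nrxn2 peak (Gm14964) and the Pclo peak (Gm26954), in each case with no exon base in the peak. Whether reads were counted by strand is not given in the sources used here, so reads of these pairs cannot be told apart.

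**Figure D1:**
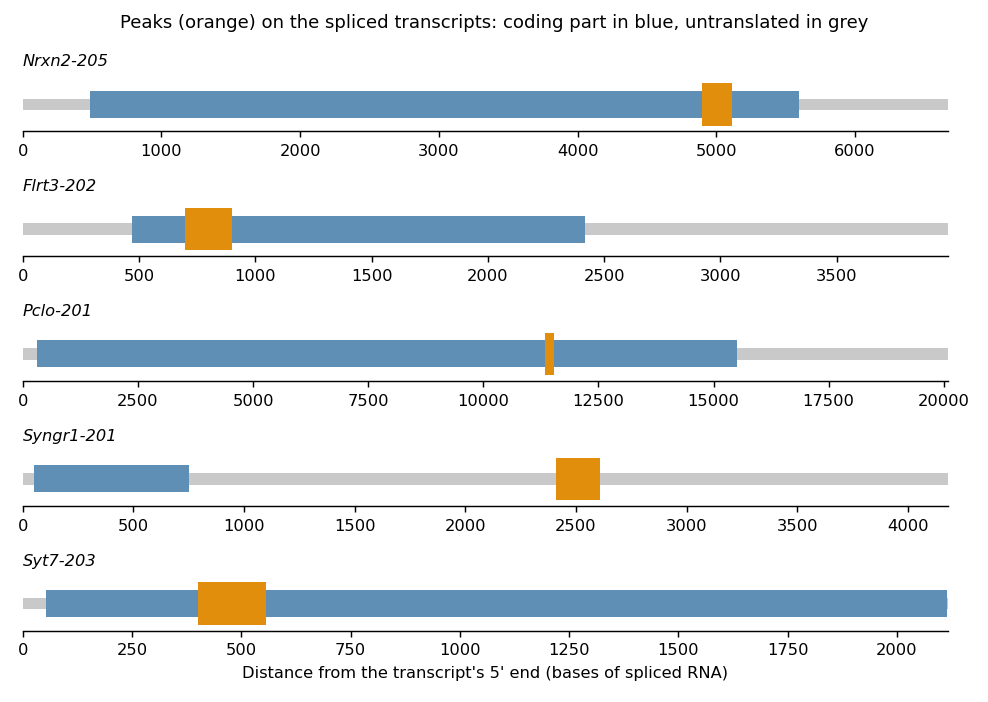
Position of 5 of the 6 peaks on the longest protein-coding transcript of each gene that holds the peak in an exon, with distance from the transcript's 5' end in bases on the horizontal axis, the coding part in blue, untranslated parts in grey and the peak in orange. The Nrxn2, Flrt3 and Pclo peaks are in coding sequence, as are 157 of the 221 bases of the Syt7 peak, and the Syngr1 peak is in the 3'UTR. The Sv2b peak is intronic and is not drawn.

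Base composition and motifs divided the peaks. The Nrxn2 peak had a GC content of 68.1%, the highest among the 112 listed peaks that were lower in aged mice, whose median was 45.5%. The Flrt3 peak (37.0%) and the Pclo peak (44.0%) lay on the other side of that median. Among the 417 peaks that were higher in aged mice the median was 73.5%, and the Syngr1 peak had 58.0%, the Sv2b peak 60.5% and the Syt7 peak 75.6%. DRACH was found on the strand of the gene 4 times in the Nrxn2 peak, 4 times in Flrt3, 6 times in Pclo and 6 times in Syngr1, and not in Syt7 or Sv2b. Of all 529 peaks 85.1% held it, 99.1% of the lower and 81.3% of the higher ones, and of the 250 peaks that are 200 bases long 84.4% did. GGAC was found 4 times in the Nrxn2 peak and 1 time each in Flrt3, Pclo, Syngr1 and Syt7, against a share of 68.4% of all peaks and 63.6% of those of 200 bases.

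Motif positions differed too. The Nrxn2 peak has a GGACT whose A lies 6 bases before the peak centre, the Flrt3 peak a GGACT 22 bases after it and the Syngr1 peak a GGACA 14 bases after it, while the GGACA of the Pclo peak lies 62 bases before the centre. On the opposite strand DRACH occurs 2 times in the Nrxn2 peak, 5 times in Flrt3, 1 time in Pclo, 5 times in Syngr1 and 1 time in Syt7. The Sv2b peak stands apart in sequence. It is soft-masked as repeat over 100% of its length, as are 12 of the 529 peaks, it is 88.5% purine (78 A and 99 G of 200 bases), it holds 20 copies of GGCAGAGA, and it contains no A followed by C on the strand of the gene, which it shares with 5 other peaks. The Pclo peak is 22.5% and the Syngr1 peak 13.0% repeat, and the Nrxn2, Flrt3 and Syt7 peaks hold none.

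**Figure D2:**
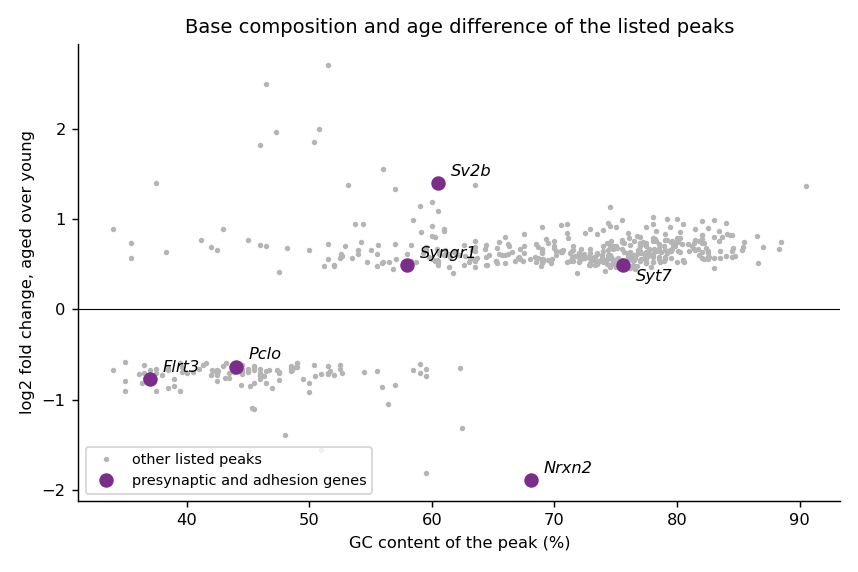
GC content of each of the 529 listed peaks in percent (horizontal axis) against its log2 fold change, aged over young (vertical axis), with the 6 presynaptic and adhesion genes in purple and the other peaks in grey. Nrxn2, at 68.1% GC, is the right-most of the peaks below 0, and Flrt3 and Pclo lie among the AT-rich lower peaks; Syngr1 and Syt7 lie above 0 here and at 0 within their SE with TMM or DESeq2 scaling.

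Read depth behind the 6 peaks varied widely. All listed peaks together held between 322474 reads (aged library 2) and 701150 reads (young library 2). Values below are CPM, the reads of a peak per 1000000 reads of library size, relative to effective library sizes recovered from the deposited average abundances, 12814321 to 16084217 for the young and 6158014 to 12534186 for the aged libraries. Of these sizes, listed peaks took 3.60%, 5.47% and 2.90% in the young libraries in order of their number, compared with 5.56%, 5.24% and 5.73% in aged mice, so young library 2 was close to the aged libraries in that share and young library 3 farthest from them. Among cell type markers, 2 of 12 hippocampal neuron genes were in the table, as were 3 of 12 oligodendrocyte, 2 of 12 microglia, 1 of 12 astrocyte and 1 of 12 choroid plexus genes. The absence of the rest says nothing about the tissue, since unchanged peaks are not listed.

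Reads at the peaks of the adhesion genes Nrxn2 and Flrt3 and of the active zone gene Pclo were lower in aged mice, to 0.274, 0.588 and 0.645 times the young mean. Reads at the vesicle genes Syngr1, Syt7 and Sv2b were on average 1.40, 1.41 and 2.61 times the young mean with the recovered sizes. Direction did not divide by such classes among all listed synaptic genes, these 6 included. With the recovered sizes, vesicle membrane genes had 3 higher and 1 lower peak, and active zone and fusion genes 2 and 1. Presynaptic adhesion receptors had 1 higher and 1 lower peak, as did their trans-synaptic partners. The higher means at Syngr1, Syt7 and Sv2b depended on the scaling. With column totals, TMM and DESeq2 size factors the log2 fold change was 0.10, -0.014 and -0.018 at Syngr1. At Syt7 it was 0.13, 0.020 and 0.020, and neither peak differed beyond the SE. At Sv2b it was 0.73, 0.61 and 0.57. These 3 scalings were computed on the listed peaks alone, most of which were higher in aged mice. They bring the median log2 fold change of all peaks to 0.145, 0.032 and 0.020. A move of typical higher peaks towards 0, and of lower peaks further below it, is therefore built in. These values cannot decide between the scalings. None of the 6 passed edgeR's quasi-likelihood test after Benjamini-Hochberg adjustment over the 529 peaks, a threshold that 6 of all peaks passed upwards (1.13%) and 0 downwards (0%). Without adjustment, at p under 0.05, it gave 139 peaks (26.3%), of which 91 were higher (17.2%) and 48 lower (9.07%), and of the 6 it gave Sv2b among the higher and Nrxn2 and Flrt3 among the lower. With the same scaling, edgeR's likelihood ratio test and DESeq2's Wald test each called 12 peaks (2.27%), 11 higher (2.08%) and 1 lower (0.189%), and Nrxn2 was the one of the 6 among them (adjusted p = 0.0259 and 0.0416). The paper's own calls came from the likelihood ratio test with the option of removing unwanted variation (RUV) and a fold change threshold. The calls given here had neither and were adjusted over the 529 selected peaks. None of them is therefore like for like with the paper's calls. The young and aged libraries did not overlap at 2 of the 6 peaks, Nrxn2 and Pclo, both lower in aged mice; over all peaks this held for 249 (47.1%), with 79 lower (14.9%) and 170 higher (32.1%).

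**Figure D3:**
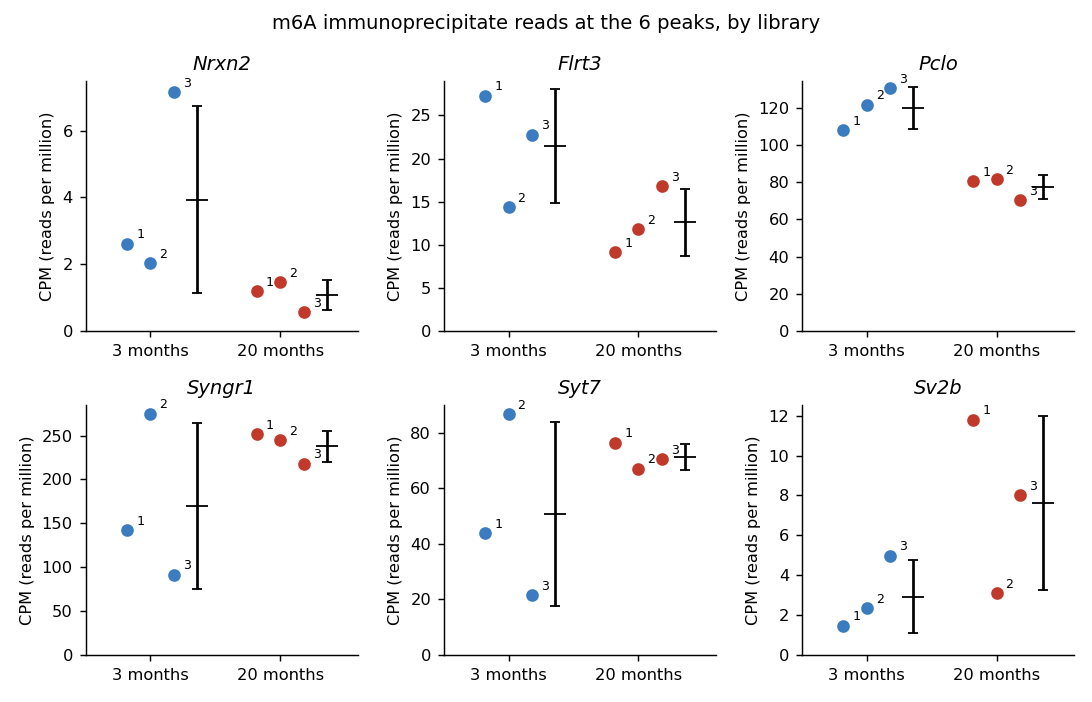
Immunoprecipitate reads at the 6 peaks in CPM (vertical axis, from 0, a separate scale for each gene) for the 3 young (blue) and 3 aged (red) libraries, numbered as labelled; black bars are mean and SD of the 3 libraries. The ages separate at Nrxn2 and Pclo and overlap at Flrt3, Syngr1, Syt7 and Sv2b, where young library 2 is above every aged library at Syngr1 and Syt7.

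Among the adhesion genes, the Nrxn2 peak held 39, 26 and 115 reads in the young group (libraries 1, 2 and 3, in this order here and below) against 15, 9 and 5 in the aged group. In CPM these were 2.62, 2.03 and 7.15 in young and 1.20, 1.46 and 0.572 in aged mice. Every aged library lay below every young one, and young library 3 was far above its group. The mean went from 3.93 ± 2.80 to 1.08 ± 0.457 CPM (SD, n = 3 per age), a log2 fold change of -1.89 (SE 0.64, 95% interval -3.24 to -0.54; edgeR quasi-likelihood adjusted p = 0.167). The two-sided exact permutation test gave p = 0.1, the smallest that 3 libraries against 3 allow. This was the lowest log2 fold change of all 529 listed peaks, on few reads, since 3 peaks had a lower mean read number. Without young library 3 the log2 fold change was -1.13 (edgeR adjusted p = 0.263), so the size of the difference, though not its direction, rested on that library.

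The Flrt3 peak had 407, 184 and 366 reads in young and 115, 73 and 147 in aged libraries, or 27.3, 14.4 and 22.8 CPM against 9.18, 11.9 and 16.8 CPM. The groups overlapped, because young library 2 fell below aged library 3. The mean went from 21.5 ± 6.56 to 12.6 ± 3.88 CPM (SD, n = 3 per age), a log2 fold change of -0.77 (SE 0.36, 95% interval -1.53 to -0.005; edgeR quasi-likelihood adjusted p = 0.167; exact permutation p = 0.2). The other scalings gave -1.40 with column totals, -1.51 with TMM factors, which passed the test (edgeR adjusted p = 0.0464), and -1.54 with DESeq2 size factors. In size it was the 29th of the 112 lower peaks, whose median was -0.70. The coefficient of variation was 30.6% in young and 30.8% in aged libraries; with the other scalings it was 48.9% to 51.0% in young and 28.1% to 28.2% in aged ones.

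With the recovered sizes the Pclo peak was the most even of the 6 in young mice. It had 1610, 1559 and 2096 reads in young and 1009, 502 and 614 in aged libraries, or 108, 122 and 130 CPM against 80.5, 81.5 and 70.3 CPM. Every aged library lay below every young one. The mean went from 120 ± 11.3 to 77.4 ± 6.21 CPM (SD, n = 3 per age), a log2 fold change of -0.63 (SE 0.33, 95% interval -1.34 to 0.07; edgeR quasi-likelihood adjusted p = 0.167; exact permutation p = 0.1, the smallest possible). With column totals it was -1.20 (edgeR adjusted p = 0.0509), and it passed the test with TMM factors (-1.32, edgeR adjusted p = 0.0337) and DESeq2 size factors (-1.34, edgeR adjusted p = 0.0494), as did 87 (16.4%) and 45 (8.51%) lower peaks in all. Its coefficient of variation was 9.40% in young libraries, less than at 509 of the other peaks, and 8.03% in aged ones. This evenness depended on the scaling, since the young value was 35.7% with column totals, 36.9% with TMM factors and 40.9% with DESeq2 size factors; the ages were apart under each of them.

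Among the vesicle genes, the Syngr1 peak had 2120, 3527 and 1472 reads in young and 3150, 1509 and 1904 in aged libraries. In CPM these were 142, 275 and 91.5 in young and 251, 245 and 218 in aged mice. The aged libraries were tight, whereas young library 2 was the highest of all 6 and young library 3 the lowest. The mean went from 170 ± 94.9 to 238 ± 17.7 CPM (SD, n = 3 per age), a log2 fold change of 0.49 (SE 0.42, 95% interval -0.40 to 1.38; edgeR quasi-likelihood adjusted p = 0.274; exact permutation p = 0.4). The young libraries had a coefficient of variation of 55.9% and the aged ones of 7.45%; with the other scalings the young value was 19.4% to 23.2%, the lowest of the 6 peaks.

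The Syt7 peak had 654, 1110 and 347 reads in young and 958, 413 and 616 in aged libraries, or 43.9, 86.6 and 21.6 CPM against 76.4, 67.1 and 70.5 CPM. The libraries took the same order within the young group as at Syngr1, with young library 2 again above every aged library. The mean went from 50.7 ± 33.1 to 71.3 ± 4.74 CPM (SD, n = 3 per age), a log2 fold change of 0.49 (SE 0.43, 95% interval -0.41 to 1.40; edgeR quasi-likelihood adjusted p = 0.274; exact permutation p = 0.4). Young libraries varied by 65.2% and aged ones by 6.64% (coefficient of variation), and the young value was 31.9% to 35.5% with the other scalings. Syngr1 and Syt7 were near the small end of the 417 higher peaks, the 396th and 390th in size against a median log2 fold change of 0.64.

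The Sv2b peak had 22, 30 and 80 reads in young and 148, 19 and 70 in aged libraries, or 1.48, 2.34 and 4.97 CPM against 11.8, 3.09 and 8.01 CPM. The groups overlapped, because aged library 2 fell below young library 3. The mean went from 2.93 ± 1.82 to 7.64 ± 4.37 CPM (SD, n = 3 per age), a log2 fold change of 1.39 (SE 0.54, 95% interval 0.24 to 2.55; edgeR quasi-likelihood adjusted p = 0.167; exact permutation p = 0.2). In size it was the 9th of the 417 higher peaks. It was also among the least even, with coefficients of variation of 62.2% in young and 57.3% in aged libraries, and 2 of the 529 peaks had a larger spread in aged mice. Without young library 3 the log2 fold change was 2.04 and passed the test (edgeR adjusted p = 0.00056), as did 14 higher peaks in all (2.65%), and without aged library 1 it was 0.93.

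With the recovered sizes, the spread within the young group followed the direction of most peaks. Young library 2 was above young library 3 by 1.59 on the log2 scale at Syngr1 and by 2.01 at Syt7, and lower than it at Nrxn2 (-1.82), Flrt3 (-0.66), Pclo (-0.10) and Sv2b (-1.09). The median of this difference was 1.19 over the 417 higher and -0.55 over the 112 lower peaks. Sv2b thus had the sign opposite to the median of its own direction. It was not alone in this, since the difference was positive for 398 out of 417 such peaks and negative, for example, at Nme7 (-0.75). Young library 2 was the closest of the 3 young libraries to the aged mean at Nrxn2, Flrt3, Syngr1 and Syt7, young library 1 at Pclo and young library 3 at Sv2b. The coefficient of variation was larger in young than in aged libraries at 5 of the 6 peaks, and at 456 of all 529; Flrt3 was the exception with the recovered sizes but not with the other scalings.

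**Figure D4:**
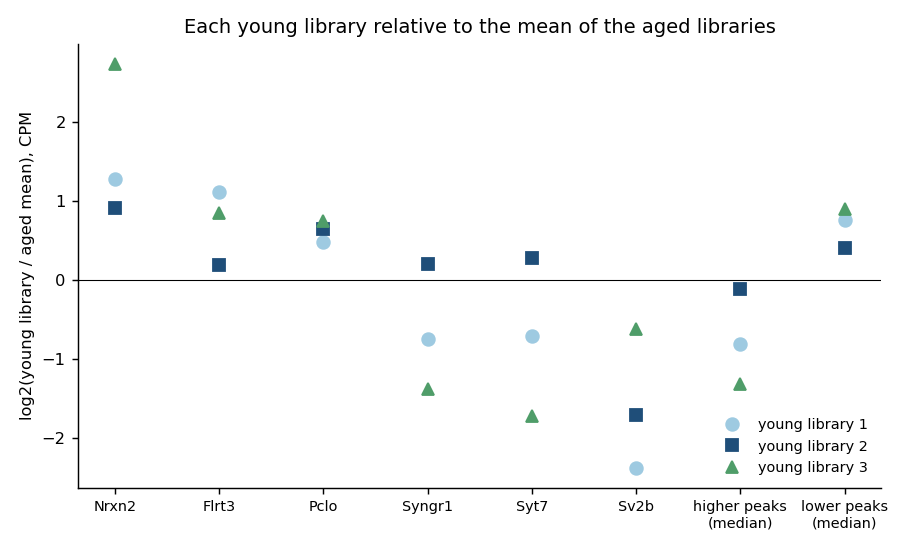
Log2 ratio of each young library to the mean of the 3 aged libraries in CPM (vertical axis; 0 is no difference) at the 6 peaks and as the median of the 417 higher and 112 lower listed peaks. Young library 2 is nearest to 0 at Nrxn2, Flrt3, Syngr1 and Syt7; at Sv2b the order of libraries 2 and 3 is the reverse of that at Syngr1 and Syt7.

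Leaving out young library 2 changed every call. All 6 peaks then passed the quasi-likelihood test, but so did 410 higher (77.5%) and 103 lower (19.5%) of all 529, so the calls are not particular to these genes. The fits without that library gave log2 fold changes of -2.20 at Nrxn2, -0.99 at Flrt3, -0.62 at Pclo, 1.03 at Syngr1, 1.13 at Syt7 and 1.27 at Sv2b (edgeR adjusted p from 0.000913 at Syt7 to 0.0184 at Pclo). At Syngr1 and Syt7 the log2 fold change itself grew by more than 1.5 times. At Pclo and Sv2b it was slightly smaller than with all libraries, and the SE was smaller (0.25 and 0.48, against 0.33 and 0.54 with all libraries). Without young library 3 the Syngr1 and Syt7 log2 fold changes were 0.19 and 0.13.

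Reads of 2 peaks in the same library give a ratio from which the library size drops out. The ratio of Syngr1 to Pclo reads was 1.32, 2.26 and 0.702 in young and 3.12, 3.01 and 3.10 in aged libraries, and that of Syt7 to Pclo 0.406, 0.712 and 0.166 against 0.949, 0.823 and 1.003. Both ratios were higher in every aged library than in any young one, although Syngr1 and Syt7 by themselves overlapped between the ages. These peaks were listed for opposite directions, so this separation is a description and carries no test. The ratio of Sv2b to Pclo (0.0137 to 0.0382 in young and 0.0379 to 0.147 in aged libraries) overlapped, as did that of Syngr1 to Syt7 (3.18 to 4.24 and 3.09 to 3.65).

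**Figure D5:**
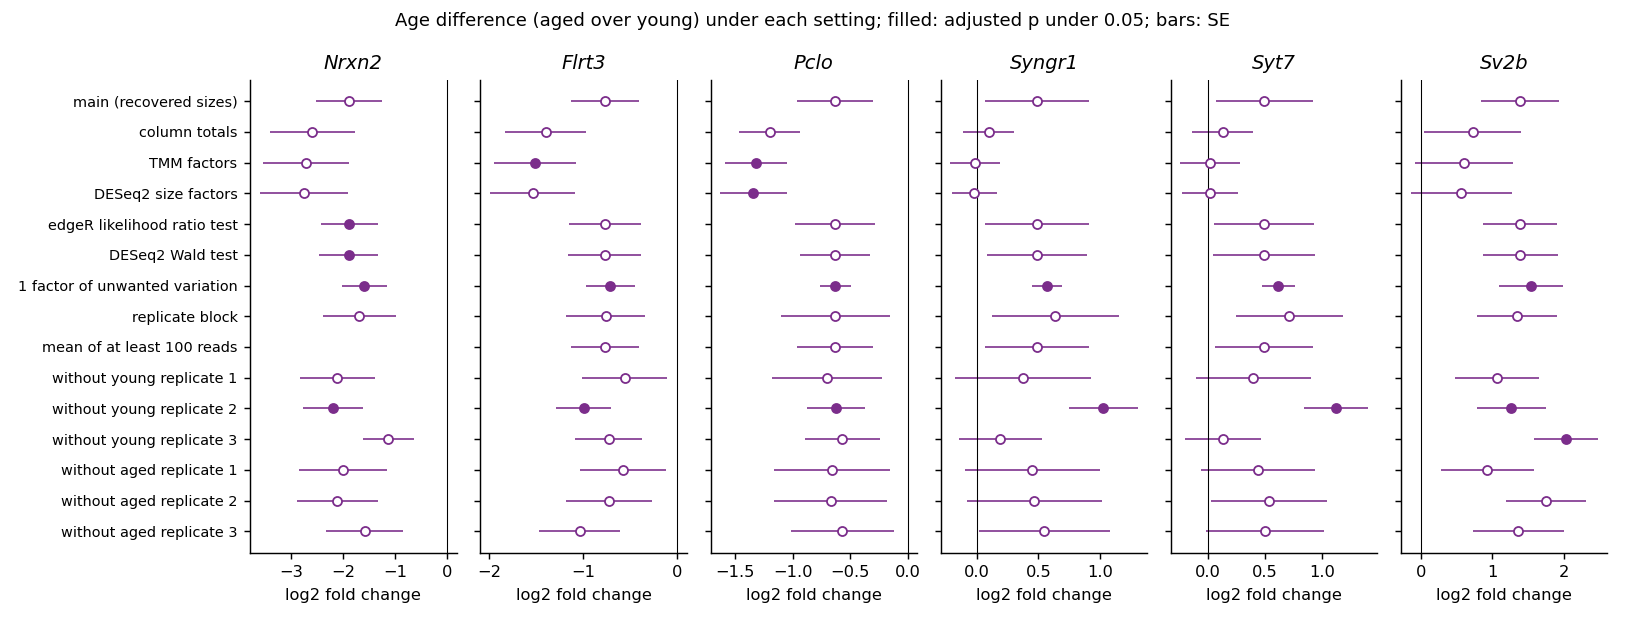
Log2 fold change, aged over young (horizontal axis, a separate scale for each gene), at the 6 peaks under the main setting and each alternative, with bars of 1 SE; filled points passed the adjusted threshold of 0.05 over all peaks tested. Nrxn2, Flrt3 and Pclo stay below 0 and Sv2b above it in every setting shown, while Syngr1 (-0.014 and -0.018) and Syt7 (0.020 in both) lie at 0 within their SE with TMM and DESeq2 size factors.

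Across the 6 libraries the Syngr1 and Syt7 peaks followed each other closely (Pearson r of log2 CPM 0.99, a description over 6 libraries that share their depth and age group). Nrxn2 and Pclo had r = 0.90, and Sv2b was unlike the other vesicle genes (r = 0.16 with Syngr1). The 2 peaks most like Syngr1 were in Gabbr1, a subunit of the GABA-B receptor (r = 0.999), and Tpd52 (r = 0.9985), and those most like Syt7 in Cacna1a, the pore subunit of the P/Q-type presynaptic calcium channel (r = 0.9985), and Vapb, an endoplasmic reticulum contact protein (r = 0.9979). These patterns were common, since 153 listed peaks had r over 0.95 with Syngr1 and 142 with Syt7. The correlations use the recovered sizes and were not repeated with the other scalings. The young spread at Syngr1 and Syt7 was smaller under those scalings. The lower peaks had fewer such neighbours than Syngr1 and Syt7, 4 at Nrxn2, 1 at Flrt3 and 5 at Pclo. The list holds 417 higher and 112 lower peaks, so these counts do not compare the directions. Pclo was most like Sfr1 (r = 0.98) and 2810006K23Rik (r = 0.97), Nrxn2 most like the zinc finger gene Zfp605 (r = 0.97), and Flrt3 most like the zinc finger genes Zfp329 (r = 0.96) and Zfp933 (r = 0.94). No peak had r over 0.95 with Sv2b, and the nearest were Oaf (r = 0.91) and Trim33 (r = 0.89).

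Of 193 genes in lists of synaptic vesicle, active zone, calcium channel, endocytosis and trans-synaptic adhesion proteins, 15 were in the table, the 6 described here and 9 more. Of these 9, 8 had a higher and 1 a lower level in aged mice (6 and 3 with TMM or DESeq2 size factors, which turned Itsn1 and Cacna1a), 0 passed edgeR's quasi-likelihood test under any of these scalings, and the ages were apart at 2 (against 47.1% of all peaks). The median over the 15 was 0.53, against 0.59 over all 529 peaks. Among genes of calcium entry, Cacna1b, the pore subunit of the N-type channel, had 9.05, 19.2 and 10.4 CPM in young and 24.5, 20.3 and 23.8 in aged libraries, which did not overlap (log2 fold change 0.83), and Cacna1a had 0.46. Cadps2, a priming factor of dense-core vesicles, had 49.6, 70.8 and 31.5 CPM in young and 75.6, 86.1 and 72.3 in aged libraries, also without overlap (0.62). The other log2 fold changes were 0.66 for Stxbp5 (tomosyn, an inhibitor of SNARE assembly), 0.53 for Itsn1 and 0.76 for Picalm (endocytic adaptors), 0.64 for Adgrb2 (an adhesion G-protein-coupled receptor), 0.61 for Unc5b (a netrin receptor that also binds FLRT proteins) and -0.68 for Rab27b (a GTPase of vesicle trafficking). The Flrt3 peak was thus lower and the peak of Unc5b, of the family of its receptors, higher in aged mice, and neither passed the test.

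Markers of neurons and of other cells differed between the same libraries. The summed CPM of the 2 listed hippocampal neuron peaks was 124, 205 and 106 in young and 217 to 254 in aged libraries. The summed CPM of the 3 listed oligodendrocyte peaks was 671 to 1470 in young and 1482 to 1993 in aged libraries. For the 2 microglia peaks it was 109 to 220 and 231 to 287. Within these sums, the oligodendrocyte gene Mobp overlapped between the ages (young library 2 at 1201, aged library 3 at 1049 CPM). So did the microglia gene Tmem119 (38.9 and 34.9 CPM), while the other peaks of the 3 lists did not. All had been selected for a difference, and the ages were apart at 47.1% of all listed peaks. In all 3 lists young library 2 was highest and young library 3 lowest among the young, as at Syngr1, Syt7 and most higher peaks. Of the 417 higher peaks, young library 2 was the highest young library at 388 and young library 3 the lowest at 359. These sums use the recovered sizes and were not repeated with the other scalings. Gpr17, predominantly expressed in oligodendrocytes per the paper, is outside the oligodendrocyte list. Its peaks were lower in aged mice (log2 fold change -1.05 to -0.65). The 1 listed astrocyte peak had 437 to 838 in young and 919 to 1097 in aged libraries. The choroid plexus marker Cldn2 had 29.0, 7.10 and 45.1 CPM in young and 5.27, 3.74 and 18.5 in aged libraries. Young library 2 was thus the lowest and young library 3 the highest of the young, as at Nrxn2. Each of these was common among the 112 lower peaks, with young library 2 the lowest young library at 88 and young library 3 the highest at 75. The other 11 of 12 genes of the choroid plexus list are not in the table. The part of other cells in the values of the 6 peaks was not tested, and a change in the number of cells of a type cannot be told apart from a change in the RNA of each cell.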

How the data were processed

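Per the labels and the study's methods, reads were trimmed (Trimmomatic 0.36), freed of ribosomal and PhiX reads, aligned to mm10 (STAR 2.5.3a) and kept if uniquely mapped (SAMtools 1.3); peaks were called over input (MACS2 2.2.1), set to 100 bases either side of the summit, counted (Subread 1.6.4) and annotated (bedtools 2.25.0). The submitters' processing notes also name Bowtie2 2.2.7. The deposited table (862 rows, 529 unique peaks) holds raw read counts of the authors per peak and library, not normalised, for peaks they called differential. Its deposited log2 average abundance (log2 CPM) is the authors' edgeR value. Columns of the authors' own fold changes, test scores and p-values were not used.

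Since totals of listed peaks are not library depths, 6 effective library sizes and 1 dispersion were fitted to the deposited abundances alone (edgeR's average log2 CPM, prior count 2). The median absolute residual was 2.44e-10 log2, and the sizes therefore carry the authors' normalisation. Aged and young libraries were compared in R 4.3.3 with the quasi-likelihood F test of edgeR 4.0.16, two-sided, without covariates, with Benjamini-Hochberg adjustment over the 529 peaks at 0.05. SEs were taken as the log2 fold change over the square root of F. DESeq2 was version 1.42.0. The fits were tested on simulated data. Sequence, repeats and gene models were read from GRCm38.p6 and GENCODE M21 (Python 3.11.15, pandas 2.3.3, NumPy 2.4.6, pyfaidx 0.9.0.4). Coordinates are as deposited; sequences assume that starts count from 0, which the table does not state, and the coordinates beside them count from 1.

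Members and gene lists were chosen with earlier results of these data known. Named genes are the 6 members, the 2 peaks most correlated with each, and all listed genes of the synaptic lists. Cldn2, Gpr17, Mobp and Tmem119 are named in addition, for cell types, and Nme7 as an example chosen outside this rule. A gene named by this rule is not reported here. Alternatives were 3 other scalings, 2 other tests, 1 factor of unwanted variation, the replicate number as a block, a mean of at least 100 reads, each library left out, and, for the sequences, starts counted from 1. Overlap of the ages under the other scalings was added after seeing the data.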

Additional observations from a re-analysis of the deposited data

How the results depend on the processing

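Scaling moved every value: the median over all peaks of the shift in log2 fold change was -0.46 with column totals, -0.57 with TMM factors and -0.58 with DESeq2 size factors. All 3 were computed on the listed peaks alone, most of them higher, so a shift of this direction is built in. TMM factors gave -1.51 at Flrt3 (edgeR adjusted p = 0.0464), -1.32 at Pclo (0.0337), -0.014 at Syngr1, 0.020 at Syt7 and 0.61 at Sv2b, and DESeq2 size factors -1.34 at Pclo (0.0494), -0.018 at Syngr1, 0.020 at Syt7 and 0.57 at Sv2b. Past the test were then 2 and 1 of the 6 peaks, both lower, and of all peaks 87 and 45 lower, against 3 lower with column totals. Nrxn2 had -1.88 in edgeR's likelihood ratio test and -1.89 in DESeq2's Wald test, each of which called 1 of the 6 peaks and, of all peaks, 11 higher and 1 lower. With 1 factor of unwanted variation, estimated on this selected list, all 6 passed (-1.59 at Nrxn2, -0.71 at Flrt3, -0.63 at Pclo, 0.57 at Syngr1, 0.62 at Syt7 and 1.55 at Sv2b), 3 higher and 3 lower, as did 416 higher and 111 lower of all peaks. With column totals, TMM and DESeq2 size factors the young coefficient of variation moved by over 1.5 times at Flrt3 (48.9%, 49.2% and 51.0%), Pclo (35.7%, 36.9% and 40.9%), Syngr1 (23.2%, 22.6% and 19.4%) and Syt7 (35.5%, 34.9% and 31.9%).

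Leaving out 1 library at a time gave log2 fold changes of -2.20 to -1.13 at Nrxn2, -1.03 to -0.56 at Flrt3, -0.70 to -0.57 at Pclo, 0.19 to 1.03 at Syngr1, 0.13 to 1.13 at Syt7 and 0.93 to 2.04 at Sv2b. It gave 0 to 3 higher and 0 to 3 lower calls among the 6, and 4 to 410 higher and 0 to 103 lower calls among all peaks; the largest of these counts, and the largest differences at Nrxn2, Syngr1 and Syt7, came without young library 2. Same-numbered young and aged libraries had correlations of -0.20, -0.04 and -0.03 in their deviations from the group mean. Differently numbered ones had -0.009 to 0.094. Whether same-numbered libraries shared a batch was not tested. With the replicate block none of the 6 passed (adjusted p 0.198 to 0.224), and 6 higher and 1 lower of all peaks passed. Nrxn2 and Sv2b, with few reads, are not in the fit of peaks with a mean of at least 100 reads. Depth limits Nrxn2 most, with 5 to 15 reads per aged library.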
